A study of Mus musculus with 2 samples.

Results

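The genes described here encode the core of the inflammasome in mouse lung dendritic cells: the sensors Nlrp3, Nlrc4, Nlrp1b and Mefv, the adaptor Pycard, the proteases Casp1 and Casp4, and the pore-forming protein gene Gsdmd. They were chosen by name as 8 of 31053 features, and each was found once, by its symbol, in both count matrices. The data are 2 droplet single-cell RNA libraries from lungs of C57BL/6 mice aged 8 to 10 weeks that received no treatment named in the labels. One holds cells sorted on CD172a (the product of Sirpa) as type 2 conventional dendritic cells (cDC2), and the other holds cells sorted on the chemokine receptor XCR1 as type 1 cells (cDC1). Lung tissue was digested with dispase for both, and how many mice were pooled is not stated.

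An inflammasome is a protein complex that a cytosolic sensor builds when it meets a danger signal. The sensor recruits the adaptor ASC, which Pycard encodes, and ASC recruits caspase-1, which cuts the precursors of interleukin-1 beta and interleukin-18 and also gasdermin D, whose freed part opens pores in the plasma membrane. Mouse caspase-11, the product of Casp4, binds bacterial lipopolysaccharide in the cytosol and cuts gasdermin D without ASC. In resting cells the proteins are stored in an inactive form, so a transcript level does not say whether a complex was active. Protein was not measured, so the levels below are of transcript only.

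After filtering, 2835 cells remained in the cDC2 sort and 2574 in the cDC1 sort, which is how the 2 libraries are called from here on. Transcript molecules were counted as unique molecular identifiers (UMIs), 38613693 over the cells of the cDC2 sort (12655 in the median cell) and 35071861 over those of the cDC1 sort (12866). Levels are UMIs summed over a group of cells and scaled to 1000000 UMIs of that group (CPM), with exact Poisson intervals at the 95% level. There was 1 library per sort, so no test was possible, cells are not replicates, and every interval covers counting error only. A gene was taken as measured at 10 CPM or more in one of the pools compared, and a 2-fold difference is a rule of size. The sort genes followed the labels, with Sirpa at 123 CPM in the cDC2 sort and 5.62 CPM in the cDC1 sort, and Xcr1 at 4.84 CPM in the cDC2 sort and 248 CPM in the cDC1 sort. Markers of other cell types were carried by 277 cells (9.77%) of the cDC2 sort and 41 cells (1.59%) of the cDC1 sort. A total of 5 cell barcodes occurred in both libraries.

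On the mouse GRCm38 assembly, Casp1 (chromosome 9, 5298517 to 5307265, plus strand) and Casp4 (chromosome 9, 5308828 to 5336783, plus strand) are neighbours with 1562 bases between them. Nlrp3 (chromosome 11, 59541568 to 59566956, plus strand), Mefv (chromosome 16, 3707218 to 3718097, minus strand) and Gsdmd (chromosome 15, 75862327 to 75867408, plus strand) overlap no other annotated gene. Pycard (chromosome 7, 127989708 to 127993867, minus strand) overlaps Gm45205 on the other strand, and Nlrc4 (chromosome 17, 74425438 to 74459142, minus strand) overlaps a processed pseudogene. Casp1 and Casp4 overlap no other gene either. Nlrp1b (chromosome 11, 71153102 to 71230733, minus strand) has the close paralog Nlrp1a, and its counts are uncertain to the extent that reads of such copies are split or discarded.

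Promoter sequences from RefSeq (GRCm38.p6) were matched for 7 of the 8 genes. Those of Mefv and Casp4 are shown because these genes had the largest cDC2 to cDC1 ratios among the measured members, that of Casp1 because it is the neighbour of Casp4, and that of Nlrp3 because it is the sensor with the most UMIs. Each is the 250 bases before the RefSeq transcript start, which can differ by some bases from the gene bounds above, 5′ to 3′ on the strand of the gene: Mefv chr16:3718125-3718374 (minus), Casp4 chr9:5308599-5308848 (plus), Casp1 chr9:5298267-5298516 (plus) and Nlrp3 chr11:59541319-59541568 (plus). Capitals mark matches, on either strand, to GAGGAA, a core bound by the myeloid factor PU.1, or to a loose form of the NF-kB site, GGG and CC with any 5 bases between them.
Mefv: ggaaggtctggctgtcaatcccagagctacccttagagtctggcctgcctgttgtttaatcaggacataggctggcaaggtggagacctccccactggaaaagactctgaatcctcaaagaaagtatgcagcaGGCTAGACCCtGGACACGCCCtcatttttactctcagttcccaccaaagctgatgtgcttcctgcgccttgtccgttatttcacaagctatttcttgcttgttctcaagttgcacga
Casp4: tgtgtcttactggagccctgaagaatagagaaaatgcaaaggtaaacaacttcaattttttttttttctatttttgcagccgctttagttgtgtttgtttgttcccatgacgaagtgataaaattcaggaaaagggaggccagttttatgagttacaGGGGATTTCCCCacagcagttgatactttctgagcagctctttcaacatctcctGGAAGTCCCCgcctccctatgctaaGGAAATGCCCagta
Casp1: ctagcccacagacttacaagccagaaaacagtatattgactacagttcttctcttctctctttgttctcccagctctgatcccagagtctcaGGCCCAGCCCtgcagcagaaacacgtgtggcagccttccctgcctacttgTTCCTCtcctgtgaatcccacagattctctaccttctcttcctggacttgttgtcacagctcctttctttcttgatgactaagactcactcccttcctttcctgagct
Nlrp3: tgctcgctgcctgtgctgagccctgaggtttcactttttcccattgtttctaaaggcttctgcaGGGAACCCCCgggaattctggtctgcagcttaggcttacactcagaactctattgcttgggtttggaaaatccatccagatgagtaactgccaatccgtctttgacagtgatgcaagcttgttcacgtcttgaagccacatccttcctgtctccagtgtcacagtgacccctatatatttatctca
The Casp4 window held 5 matches to the NF-kB form, counted with overlaps, the Mefv window 2, and the Casp1 and Nlrp3 windows 1 each. GAGGAA was found once in the Casp1 window, as its reverse complement, and in none of the other windows shown. No GAGGAA match overlapped an NF-kB match. Of 32851 mouse promoter windows of the same length, 23.3% held GAGGAA and 45.8% held the NF-kB form, so a match is a description of letters and not a site.

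Between the libraries, Mefv, Casp4 and Casp1 were more than 2-fold higher in the cDC2 sort, and no measured member was 2-fold lower. Nlrp3 and Pycard were higher by less than 2-fold, and Gsdmd was at nearly the same level in both. By that rule 3 of the 6 measured members were higher and 0 were lower. Across all 6610 features measured in that comparison, 7.79% were higher by that rule and 5.51% were lower. The median log2 ratio of the 6 was 1.03, and that of all measured features was 0.05.

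Among the sensors, Nlrp3, which responds to potassium loss and many other disturbances, stood at 154 CPM in the cDC2 sort (5937 UMIs, interval 150 to 158) and 89.1 CPM in the cDC1 sort (3124 UMIs, 86.0 to 92.3). The ratio was 1.73 (1.65 to 1.80), so the intervals of the levels did not overlap while the difference stayed under 2-fold. Mefv encodes pyrin, the sensor that is mutated in familial Mediterranean fever in humans. It stood at 29.5 CPM in the cDC2 sort (1138 UMIs) and 3.16 CPM in the cDC1 sort (111 UMIs), a ratio of 9.31 (7.66 to 11.4). Nlrc4, which pairs with NAIP proteins to detect flagellin and bacterial secretion needles, fell under the 10 CPM limit in both libraries. It had 169 UMIs (4.38 CPM) in the cDC2 sort and 14 UMIs (0.399 CPM) in the cDC1 sort, a ratio of 10.96 (6.36 to 20.5) that rests on the 14. Nlrp1b, the sensor of anthrax lethal factor in some mouse strains, was also under the limit, with 191 UMIs (4.95 CPM) in the cDC2 sort and 256 UMIs (7.30 CPM) in the cDC1 sort. Its ratio of 0.678 (0.559 to 0.821) was the only one of the 8 below 1.

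The adaptor gene Pycard stood at 82.5 CPM in the cDC2 sort (3186 UMIs, 79.7 to 85.4) and 45.8 CPM in the cDC1 sort (1607 UMIs, 43.6 to 48.1), a ratio of 1.80 (1.70 to 1.91). Of the proteases, Casp1 stood at 25.8 CPM in the cDC2 sort (996 UMIs) and 11.2 CPM in the cDC1 sort (392 UMIs), a ratio of 2.31 (2.05 to 2.60). Its neighbour Casp4 stood at 50.2 CPM in the cDC2 sort (1938 UMIs) and 7.93 CPM in the cDC1 sort (278 UMIs), a ratio of 6.33 (5.58 to 7.21). The intervals of these ratios did not overlap, although the genes are adjacent and transcribed from the same strand. Gsdmd, the substrate that both caspases share, stood at 33.4 CPM in the cDC2 sort (1291 UMIs) and 27.3 CPM in the cDC1 sort (957 UMIs), a ratio of 1.22 (1.13 to 1.33).

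**Figure D1:**
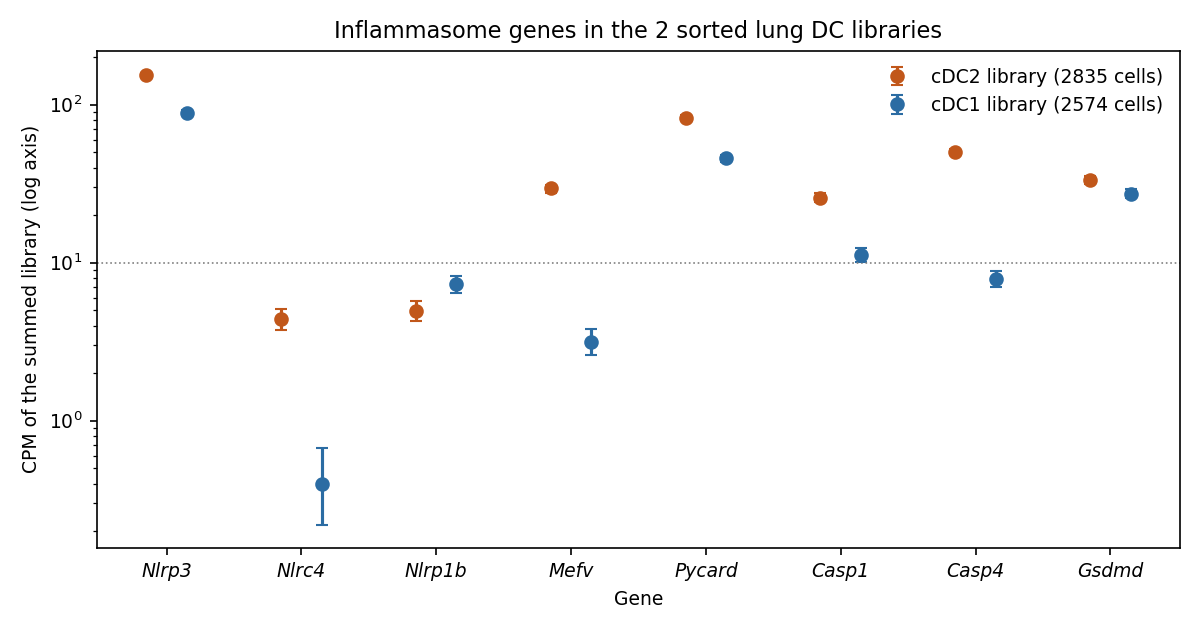
CPM (log axis) of the 8 genes in the cDC2 sort (left point of each pair) and the cDC1 sort (right point), with exact 95% Poisson intervals and a dotted line at 10 CPM. Mefv (29.5 against 3.16 CPM) and Casp4 (50.2 against 7.93 CPM) stand furthest apart among the measured genes, and Gsdmd (33.4 against 27.3 CPM) stands closest.

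Of the cytokine precursors that caspase-1 cuts, Il1b stood at 3540 CPM in the cDC2 sort and 1232 CPM in the cDC1 sort, a ratio of 2.87 (2.84 to 2.90), while Il18 stood at 23.5 CPM and 28.6 CPM in the same order, a ratio of 0.820 (0.749 to 0.898).

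The cDC2 sort also held cells with macrophage, monocyte and neutrophil markers, which are known users of inflammasomes, so the comparison was repeated without every cell that passed a gate for another cell type. The 10 interstitial macrophage markers summed to 337 CPM in the cDC2 sort and 173 CPM in the cDC1 sort, the 8 neutrophil markers to 426 and 48.2 CPM, and the 8 nonclassical monocyte markers to 645 and 528 CPM. At least 10 CPM was reached by 8 of the 10 macrophage markers in the cDC2 sort and by 1 in the cDC1 sort, and none of the 10 was at 0. Among the remaining 2558 cells of the cDC2 sort and 2533 of the cDC1 sort, 3 of 6 measured members were higher and 0 lower, against 7.41% of all measured features higher and 5.86% lower. The ratio of Mefv was then 9.51 (7.77 to 11.7), that of Casp4 6.37 (5.60 to 7.28) and that of Casp1 2.28 (2.02 to 2.57), each as large as with those cells to within its interval. A narrower comparison, chosen after the data were seen, set immature cells with the cDC2 identity markers in the cDC2 sort against immature cells with the cDC1 identity markers in the cDC1 sort. There the log2 ratio of Casp4 was 3.07, that of Mefv 3.54 and that of Casp1 1.18. By the 2-fold rule 3 members were again higher, and the share of all features was not computed for it.

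Each sort also contained a few cells of the other kind, which allows the kinds to be compared inside 1 library. In the cDC2 sort, 1949 immature cells carried at least 5 of 9 cDC2 markers and 20 carried at least 5 of 8 cDC1 markers. The same gates held 28 and 2067 cells of the cDC1 sort. The summed cDC2 marker level was 3996 CPM in the cDC2-gated and 257 CPM in the cDC1-gated cells of the cDC2 sort, and 4032 CPM and 77.7 CPM in those of the cDC1 sort. The 28 cDC2-gated cells of the cDC1 sort also carried more of the maturation markers (4721 CPM, against 1134 CPM in its cDC1-gated cells). The 20 cDC1-gated cells of the cDC2 sort carried fewer (298 CPM, against 2367 CPM in its cDC2-gated cells). They also differed in make-up from the cDC1-gated cells of the cDC1 sort. At least 2 of the genes Plac8, Irf7 and Ly6a were detected in 7 of the 20, against 45 of the 2067. The part these differences play in the levels was not tested.

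Casp4 and Mefv kept their direction inside both libraries. In the cDC1 sort, Casp4 stood at 42.5 CPM in cDC2-gated cells (19 UMIs) and 6.05 CPM in cDC1-gated cells (164 UMIs), a ratio of 7.02 (4.12 to 11.3), and Mefv at 22.4 CPM (10 UMIs) and 2.62 CPM (71 UMIs), a ratio of 8.54 (3.93 to 16.6). In the cDC2 sort, Casp4 stood at 50.8 CPM in cDC2-gated cells and 3.72 CPM in cDC1-gated cells, where it rests on a single UMI, with a ratio of 13.6 (2.44 to 539). Mefv was at 30.5 CPM in cDC2-gated cells and had no UMI in the 20 cDC1-gated cells, so that it was at least 2.74-fold higher against a floor of 3 UMIs over that pool. That call depended on the identity gates. With 1 marker fewer, 35 cells were cDC1-gated and held 8 Mefv UMIs, so that Mefv stood at 31.1 CPM in cDC2-gated and 17.9 CPM in cDC1-gated cells (log2 ratio 0.80). With 1 marker more, 13 cells were left with no Mefv UMI, and the bound fell under 2-fold (log2 0.76). Nlrp3 was higher in cDC2-gated cells in both libraries, at 161 CPM and 29.8 CPM in the cDC2 sort (ratio 5.40, 2.74 to 12.5) and at 150 CPM and 93.2 CPM in the cDC1 sort (ratio 1.61, 1.24 to 2.05).

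Pycard did not repeat its library difference. It stood at 73.6 CPM in cDC2-gated and 127 CPM in cDC1-gated cells of the cDC2 sort (ratio 0.582, 0.415 to 0.843), and at 42.5 CPM and 44.3 CPM in those of the cDC1 sort (ratio 0.960, 0.576 to 1.505). Casp1 could not be placed at this depth, with 5 UMIs in the 20 cDC1-gated cells of the cDC2 sort (ratio 1.40, 0.596 to 4.32) and 3 UMIs in the 28 cDC2-gated cells of the cDC1 sort (ratio 0.587, 0.120 to 1.73). In the cDC2 sort, 3 of 7 measured members were at least 2-fold higher in cDC2-gated cells and 1 was lower (Nlrp1b), against 11.3% and 21.9% of all measured features. With identity gates of 1 marker fewer, 2 were higher (Nlrp3 and Casp4) and 0 lower. With 1 marker more, 3 were again higher, but Casp1 (log2 ratio 1.14, on 2 UMIs in the smaller pool) stood in place of Mefv. The share of all features was not computed for these other gates, so their counts have no background. With the gates as set, Nlrp1b rests on 3 UMIs in the smaller pool. Within the cDC1 sort, 2 of 6 were higher and 0 lower, against 12.7% and 14.2%. The small pools have wide counting error, which these shares of all features include.

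**Figure D2:**
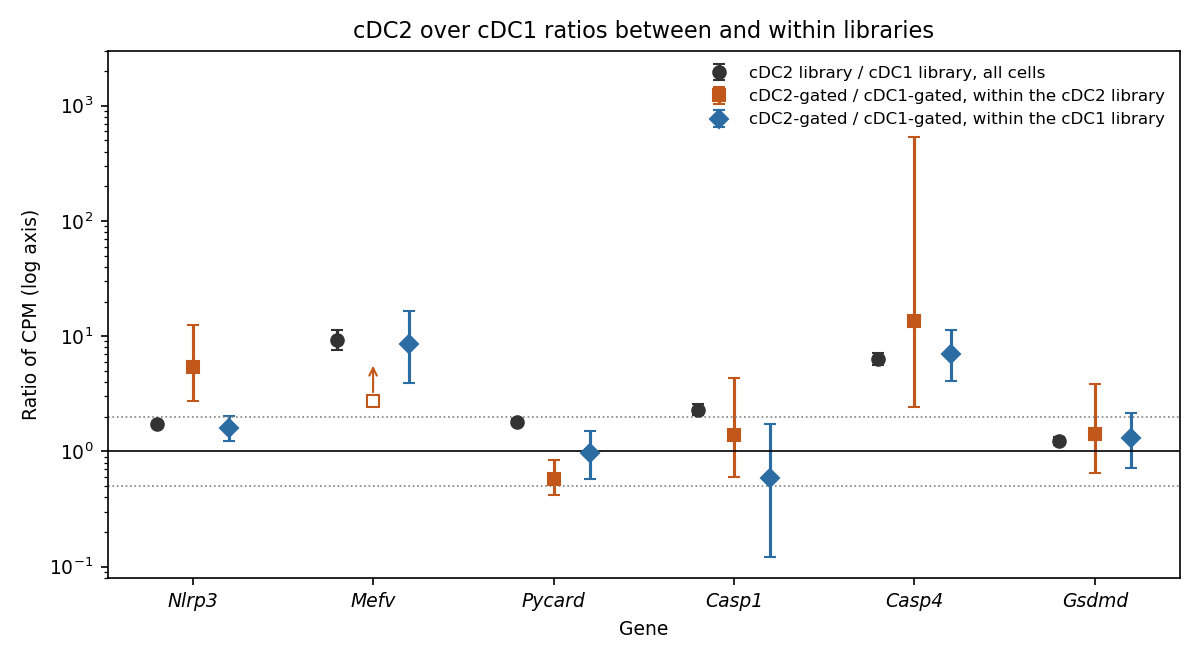
Ratio of CPM (log axis), cDC2 over cDC1, for the 6 members measured in the library comparison: between libraries (black), within the cDC2 sort (1949 against 20 cells, orange) and within the cDC1 sort (28 against 2067 cells, blue), with 95% counting intervals and dotted lines at 2-fold. The open square with an arrow is a lower bound. Casp4 lies above 2 in all 3 comparisons and Pycard lies above 1 between the libraries only.

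Cells were then divided into states by listed marker genes, and 13 states held 50 cells or more, 7 in the cDC2 sort and 6 in the cDC1 sort. The mature gate needs 5 of 8 genes such as Fscn1, Ccr7 and Ccl22 that dendritic cells switch on before they leave for the lymph node. The Cd7 Plac8 gate needs 4 of 5 genes (Cd7, Plac8, Ifitm6, Ms4a6b, Ifitm3), and the Mrc1 Il1rl1 gate 3 of 5 (Mrc1, Il1rl1, Cd209d, Fcrls, Ccl9). Of the cDC1-gated cells, those with at least 2 of Plac8, Irf7 and Ly6a were set apart first. They were 45 in the cDC1 sort, under the limit of 50. The rest were divided by a UMI of Il12b and then by joint detection of Plet1 and Cd207. Cells gated on none of these are called other cDC2 or other cDC1, and cells with neither identity set stay unnamed.

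**Figure D3:**
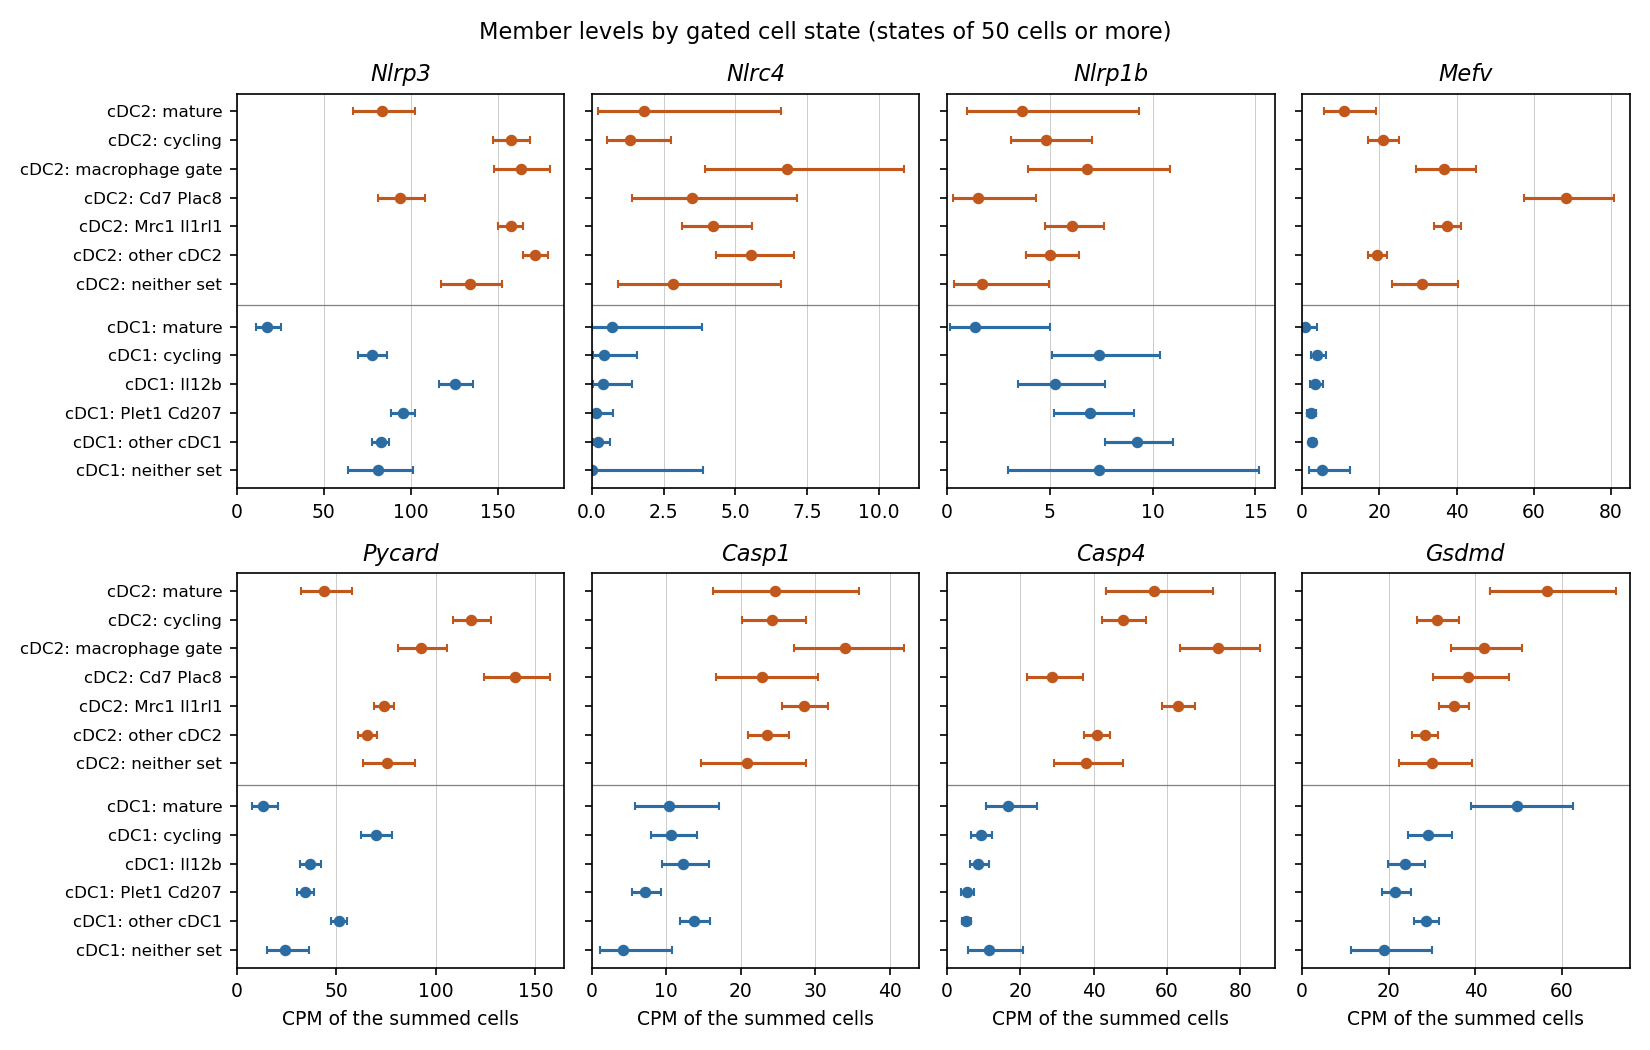
CPM of each member in the 13 gated states of 50 cells or more, cDC2 sort above (orange) and cDC1 sort below (blue), with exact 95% Poisson intervals and a linear axis from 0. For Mefv, Casp1, Casp4 and Nlrc4 every cDC2-sort state lies above every cDC1-sort state, although for each gene the intervals overlap where the sorts meet. How many of all features do so was not counted. Gsdmd is highest in mature cells of both (56.6 and 49.7 CPM).

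The level of Casp4 was higher in every state of the cDC2 sort than in any of the cDC1 sort. It ranged over 28.8 to 73.9 CPM in the 7 states of the cDC2 sort and 5.20 to 16.6 CPM in the 6 states of the cDC1 sort. The highest level was that of the macrophage-gated cells (73.9 CPM, 63.6 to 85.3), followed by Mrc1 Il1rl1 cells (63.1 CPM, 58.6 to 67.7), whose intervals overlap, and the lowest cDC2-sort level was that of Cd7 Plac8 cells (28.8 CPM, 21.8 to 37.2). Its interval overlaps that of the highest cDC1-sort state, the mature cells (16.6 CPM, 10.6 to 24.6). Casp1 ranged over 20.9 to 33.9 CPM in the cDC2 sort and 4.21 to 13.8 CPM in the cDC1 sort. It had its highest level in the same macrophage-gated cells and varied less than Casp4 among the cDC2-sort states. For both genes, the intervals of every neighbouring pair in the order overlapped.

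Mefv ranged over 10.95 to 68.4 CPM in the cDC2 sort and 0.690 to 5.26 CPM in the cDC1 sort. Its top state was Cd7 Plac8 (68.4 CPM, 57.5 to 80.8), whose interval lies clear of the next state, Mrc1 Il1rl1 cells (37.5 CPM, 34.1 to 41.1), and macrophage-gated cells followed at 36.7 CPM. Nlrp3 ranged over 83.1 to 171 CPM in the cDC2 sort and 17.3 to 125 CPM in the cDC1 sort, so its ranges cross. Its order was led by other cDC2 cells (171 CPM, 164 to 179). The Il12b cells of the cDC1 sort, at 125 CPM (116 to 136), stood above every other state of that library and above the Cd7 Plac8 cells (93.7 CPM) and the mature cells (83.1 CPM) of the cDC2 sort.

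Pycard was led by Cd7 Plac8 cells (140 CPM, 124 to 157) and cycling cells (118 CPM, 109 to 128) of the cDC2 sort, and its lowest state was the mature cells of the cDC1 sort (13.1 CPM, 7.89 to 20.5). Cycling cells stood above immature cells in both libraries, at 118 CPM and 74.2 CPM in the cDC2 sort (ratio 1.59, 1.45 to 1.74) and at 69.8 CPM and 44.3 CPM in the cDC1 sort (ratio 1.58, 1.39 to 1.79). Cycling cells were also deeper, with medians of 20362 UMIs against 12572 in immature cells of the cDC2 sort and 20702 against 12706 in those of the cDC1 sort, and the part of depth was not tested. Gsdmd ranged over 28.3 to 56.6 CPM in the cDC2 sort and 18.9 to 49.7 CPM in the cDC1 sort. Among the 13 states, its highest level in each library was that of mature cells. Nlrc4 stayed between 1.34 and 6.79 CPM in the cDC2-sort states and at or under 0.690 CPM in the cDC1-sort states. Nlrp1b was led by other cDC1 cells (9.23 CPM, 7.69 to 10.99) and was under 10 CPM in all 13 states. Of the 12 neighbouring pairs in each order, 2 had intervals that did not overlap for Nlrp3, 2 for Pycard and 1 for Mefv. For the other 5 genes the intervals of all neighbouring pairs overlapped. Overlap of level intervals does not show that levels are equal, and the same count over all features was not made.

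Maturation was compared inside each library, with mature-gated cells set against immature cells of the same library. With the gate as set, Nlrp3 and Pycard were lower in mature cells and Gsdmd was higher, in both libraries, while the ratio of Casp1 had an interval that includes 1. The differences of Nlrp3 and Pycard were wider in the cDC1 sort, and only there was Casp4 higher by the rule of size. The pools were 87 mature and 1969 immature cells for the cDC2 sort, and 104 mature and 2095 immature cells for the cDC1 sort.

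Nlrp3 stood at 83.1 CPM in mature cells (91 UMIs) and 159 CPM in immature cells of the cDC2 sort, a ratio of 0.521 (0.419 to 0.641), and at 17.3 CPM (25 UMIs) and 94.1 CPM in the cDC1 sort, a ratio of 0.183 (0.118 to 0.271). Pycard stood at 43.8 CPM in mature and 74.2 CPM in immature cells of the cDC2 sort (ratio 0.591, 0.434 to 0.786), and at 13.1 CPM and 44.3 CPM in the cDC1 sort (ratio 0.296, 0.178 to 0.465). Mature cells of the cDC1 sort therefore held the lowest level of both the sensor and the adaptor among the 13 states, although for Pycard the interval overlaps that of the next state. On the log2 scale the mature-over-immature difference of Nlrp3 was -0.94 in the cDC2 sort and -2.45 in the cDC1 sort, and these differ by 1.51 (counting interval 0.87 to 2.15). For Pycard they were -0.76 and -1.76, which differ by 0.995 (0.22 to 1.77).

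Gsdmd stood at 56.6 CPM in mature cells (62 UMIs) and 31.6 CPM in immature cells of the cDC2 sort, a ratio of 1.79 (1.36 to 2.32), and at 49.7 CPM (72 UMIs) and 25.9 CPM in the cDC1 sort, a ratio of 1.92 (1.48 to 2.44). The log2 differences of 0.84 and 0.94 differ by -0.10 (-0.61 to 0.41). Casp4 stood at 56.6 CPM in mature and 50.3 CPM in immature cells of the cDC2 sort (ratio 1.13, 0.858 to 1.45). In the cDC1 sort it stood at 16.6 CPM in mature (24 UMIs) and 6.65 CPM in immature cells, a ratio of 2.49 (1.56 to 3.83), and the log2 differences differ by -1.15 (-1.86 to -0.43). Casp1 stood at 24.6 CPM in mature and 25.9 CPM in immature cells of the cDC2 sort (ratio 0.951, 0.622 to 1.40), and at 10.4 CPM and 11.4 CPM in the cDC1 sort (ratio 0.911, 0.504 to 1.52). Mefv stood at 10.95 CPM in mature cells (12 UMIs) and 30.2 CPM in immature cells of the cDC2 sort, a ratio of 0.362 (0.186 to 0.636).

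By the rule of size, 0 of 6 measured members were higher and 1 was lower (Mefv) in mature cells of the cDC2 sort, against 10.7% and 7.42% of all measured features. The differences in the cDC2 sort depended on the gate. With 1 marker fewer, which raised its mature cells to 310, the call of Mefv was lost (log2 ratio -0.49), and the log2 ratios of Nlrp3 and Gsdmd were -0.02 and 0.02. In the cDC1 sort, 1 of 5 was higher (Casp4) and 2 were lower (Nlrp3 and Pycard), against 13.7% and 12.3%. There Nlrp3 and Pycard stayed lower by the rule under both other gates (Nlrp3 -1.09 and -2.53 with 1 marker fewer and 1 more), while with 1 marker more Casp4 no longer passed (log2 ratio 0.88) and Gsdmd did (1.06). Between the mature cells of the libraries, a comparison added after the data were seen, 5 of 6 members were higher by the same rule in the cDC2 sort and 0 lower, against 9.80% and 5.71% of features. Nlrp3 had a ratio of 4.81 there (3.06 to 7.82), Casp4 3.42 (2.10 to 5.72), Pycard 3.34 (1.93 to 6.02) and Casp1 2.38 (1.22 to 4.81), while Mefv rests on 1 UMI in the cDC1 sort and Gsdmd had a ratio of 1.14 (0.798 to 1.62). Mature cells had a median of 10801 UMIs in the cDC2 sort and 12974 in the cDC1 sort, and their median mitochondrial share was 4.28% and 4.29%, against 3.74% and 3.92% in immature cells. Other marker lists differed as well. The 9 cDC2 markers summed to 1666 CPM in mature and 3958 CPM in immature cells of the cDC2 sort, and the 8 cDC1 markers to 1277 CPM and 3107 CPM in those of the cDC1 sort. The 10 interstitial macrophage markers summed to 75.8 CPM in mature and 191 CPM in immature cells of the cDC2 sort, and to 24.2 CPM and 159 CPM in the cDC1 sort. At 0 were 2 of these 10 in mature cells of the cDC2 sort and 5 in those of the cDC1 sort, and none in immature cells of either. The part of depth, mitochondrial share and these markers in the differences of Nlrp3, Pycard and Gsdmd was not tested.

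**Figure D4:**
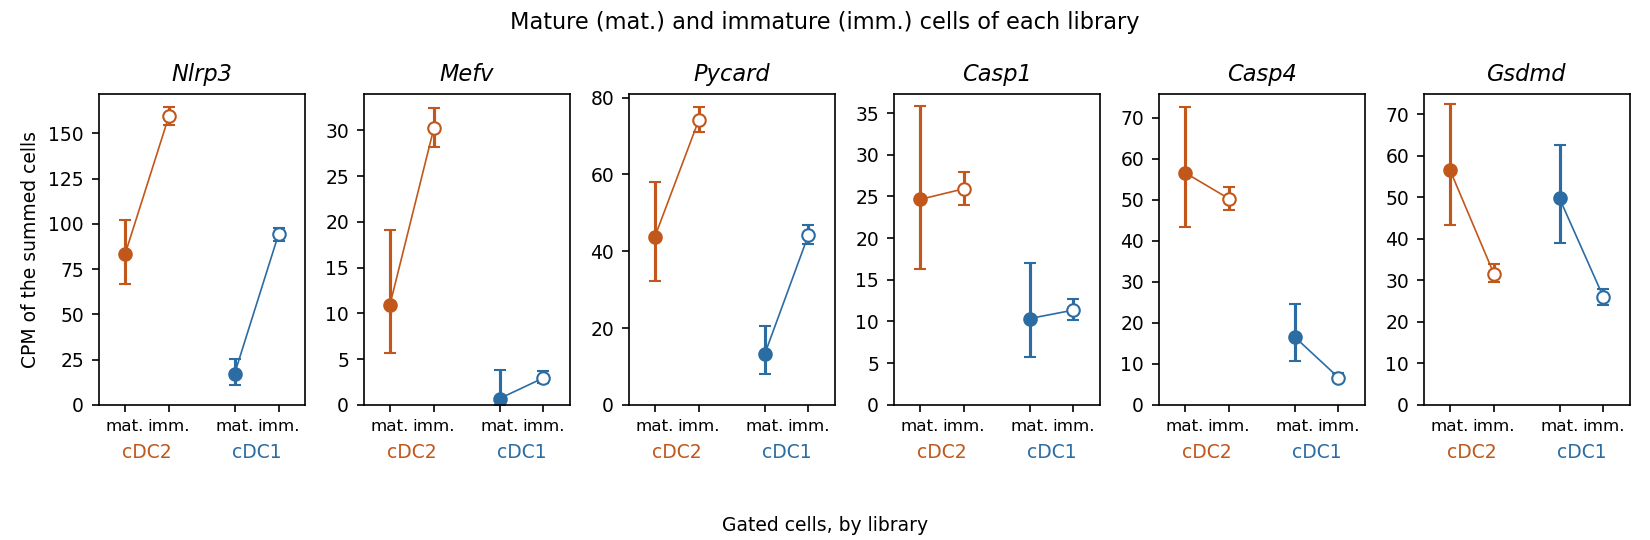
CPM of 6 members in mature (filled) and immature (open) cells of the cDC2 sort (orange, left in each panel) and the cDC1 sort (blue, right), with exact 95% Poisson intervals. Nlrp3 and Pycard lie lower in mature cells of both libraries, and Gsdmd lies higher in both (56.6 against 31.6 CPM and 49.7 against 25.9 CPM).

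Immature cDC2 cells themselves varied in Ccr7, the receptor that guides dendritic cells to lymph nodes. In the cDC2 sort, 671 such cells had at least 5 Ccr7 UMIs per 10000 and 640 had none, at medians of 13061 and 12104.5 UMIs. None of the 6 measured members was 2-fold apart between them, against 1.34% of features higher and 5.60% lower. Nlrp3 stood at 186 CPM in Ccr7-high and 138 CPM in Ccr7-zero cells (ratio 1.35, 1.25 to 1.46), and Il1b at 4635 CPM and 3046 CPM (ratio 1.52, 1.498 to 1.55). The other measured members went the opposite way, with Pycard at 49.6 CPM in Ccr7-high and 86.6 CPM in Ccr7-zero cells (ratio 0.572, 0.507 to 0.645) and Casp4 at 39.9 CPM and 63.8 CPM (ratio 0.627, 0.546 to 0.718). Ratios of Casp1 (0.709), Gsdmd (0.717) and Mefv (0.723) also had intervals below 1. The median log2 ratio over all measured features was negative as well, at -0.20, against -0.49 for the 6 members. Nlrp3 was thus higher in immature Ccr7-high cells and lower in mature cells of the same library, both of which express Ccr7.

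Cd7 Plac8 cells (170) and Mrc1 Il1rl1 cells (818) of the cDC2 sort were 2-fold apart in 1 member, Casp4. It stood at 28.8 CPM in Cd7 Plac8 and 63.1 CPM in Mrc1 Il1rl1 cells, a ratio of 0.456 (0.343 to 0.596). Mefv went the other way, at 68.4 CPM and 37.5 CPM (ratio 1.83, 1.497 to 2.21), as did Pycard at 140 CPM and 73.8 CPM (ratio 1.89, 1.65 to 2.17). Nlrp3 stood at 93.7 CPM in Cd7 Plac8 cells and 157 CPM in Mrc1 Il1rl1 cells (ratio 0.596, 0.511 to 0.693), and Il1b at 1755 CPM and 3650 CPM (ratio 0.481). Casp1 stood at 22.8 CPM in Cd7 Plac8 and 28.5 CPM in Mrc1 Il1rl1 cells, with an interval that includes 1 (ratio 0.799, 0.574 to 1.09). Of 6 measured members 0 were at least 2-fold higher and 1 was lower, against 5.40% and 6.27% of features. Cd7 Plac8 cells carried a median of 5 cDC2 markers, and cDC2-gated immature cells, which include 117 of them, carried a median of 7. Their summed cDC2 marker level was 2402 CPM, so they sit lower on that identity set.

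Cells passing the macrophage gate (146 cells with at least 4 of 10 genes such as C1qa, C1qb and Ms4a7) were set against the cDC2-gated immature cells of the same library. Their summed macrophage marker level was 2219 CPM, against 191 CPM, but their summed cDC2 marker level was nearly the same, 3909 CPM against 3996 CPM, so the gate did not separate them from cDC2 by the cDC2 markers. None of the 6 measured members was 2-fold apart, against 7.46% of features higher and 1.41% lower in the macrophage-gated cells. Casp4 stood at 73.9 CPM in macrophage-gated and 50.8 CPM in cDC2-gated cells (ratio 1.46, 1.24 to 1.70), and Nlrp3 at 163 CPM and 161 CPM (ratio 1.01, 0.913 to 1.12). The other 4 ratios lay between 1.20 for Mefv and 1.32 for Gsdmd. The median log2 ratio of the 6 was 0.36, and that of all measured features was 0.22. Macrophage-gated cells were also deeper (median 15397.5 UMIs, against 12568), and the part of depth was not tested. Smaller pools of the same sort stood further away, and 32 neutrophil-gated cells (median 2706 UMIs) had 296 CPM of Nlrp3 (221 to 390) and 87.2 CPM of Gsdmd (48.8 to 144), while 46 cells gated as nonclassical monocytes had 81.8 CPM of Nlrp3 (60.3 to 108). These pools are small beside the library, and the neutrophil-gated cells held 0.86% of its Nlrp3 UMIs.

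Detection per cell was compared after thinning each cell to 2000 UMIs. A UMI of Nlrp3 was then found in 27.2% of immature cells of the cDC2 sort (25.2 to 29.2, exact binomial) and 14.9% of those of the cDC1 sort (13.4 to 16.5), and unthinned in 76.0% and 58.9%. In mature cells the thinned shares of Nlrp3 were 14.9% (8.20 to 24.2) in the cDC2 sort and 1.92% (0.234 to 6.77) in the cDC1 sort. Casp4 was found in 8.99% of immature cells in the cDC2 sort (7.77 to 10.3) and 1.34% in the cDC1 sort (0.890 to 1.93), against 39.0% and 6.87% unthinned. Mefv was found in 6.25% (5.22 to 7.41) and 0.621% (0.331 to 1.06) in the same order, and Gsdmd in 6.05% (5.03 to 7.19) and 4.92% (4.03 to 5.93). Mature cells had Gsdmd in 16.1% (9.09 to 25.5) in the cDC2 sort and 6.73% (2.75 to 13.4) in the cDC1 sort. The interval lies above that of immature cells in the cDC2 sort and overlaps it in the cDC1 sort. The thinned shares therefore show the higher Gsdmd of mature cells in the cDC2 sort only.

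Free RNA in droplets was judged from 28 lymphocyte-gated cells of the cDC2 sort with under 3 cDC2 markers, whose median depth was 3384 UMIs against 12572 UMIs in immature cells. Thinned, 1 of the 28 held Nlrp3 (3.57%, 0.0904 to 18.3), 1 Casp4 and none Mefv, whose 0 UMIs over the pool allow up to 28.2 CPM. With 1 of 28 cells the interval for Nlrp3 ends below that of immature cells of the cDC2 sort. This check covers the cDC2 sort only, and its immature cells are those of that sort. The intervals for Casp4, Casp1 and Gsdmd overlap those of immature cells, as does that for Mefv (0 of 28, exact binomial interval up to 12.3%), so their low shares cannot be set apart from free RNA by this check. Pycard was found in 17.9% of them (6.06 to 36.9), against 14.1% of immature cells (12.6 to 15.7), and lymphocytes are not known to lack Pycard, so its share in dendritic cells has no background here and is not read further. Nlrc4 was found in 7.14% of the lymphocytes (0.877 to 23.5) and 1.12% of immature cells of the cDC2 sort. The lymphocyte interval includes the share of immature cells, and whether lymphocytes express Nlrc4 was not tested. This check therefore gives no background for Nlrc4, and its share is not read further. Joint detection was limited by depth, since no cell of either library had Nlrp3, Pycard, Casp1 and Gsdmd together after thinning (0 of 2823 cells of the cDC2 sort, which allows up to 0.106% at a floor of 3 cells, and 0 of 2567 of the cDC1 sort, up to 0.117% at the same floor). Unthinned, 173 of 2835 cells (6.10%, 5.25 to 7.05) of the cDC2 sort and 34 of 2574 cells (1.32%, 0.916 to 1.84) of the cDC1 sort had all 4. No single cell dominated a gene, and the largest count in 1 cell was 24 UMIs, of Nlrp3 in the cDC2 sort.

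The rest of the pathway was described from 7 lists of 49 genes, of which 46 were matched and 19 measured in the library comparison. Of these 19, the cDC2 sort had 3 at a 2-fold or larger higher level and 0 lower, against 7.79% and 5.51% of all measured features, with a median log2 ratio of -0.09. The 3 were Il1rn, Il1b and Casp8. Il1rn, the interleukin-1 receptor antagonist, stood at 21.7 CPM in the cDC2 sort and 3.91 CPM in the cDC1 sort (ratio 5.56, 4.64 to 6.71). Without cells gated as other types, 394 of its 839 UMIs in the cDC2 sort were left. Its levels were then 11.3 CPM and 2.39 CPM (ratio 4.73). Casp8, the initiator caspase of death receptors, stood at 51.9 CPM and 18.5 CPM with all cells (ratio 2.80, 2.56 to 3.07). Of 12 further sensors only the DNA sensor gene Aim2 was measured, at 30.0 CPM in the cDC2 sort and 33.7 CPM in the cDC1 sort (ratio 0.890, 0.820 to 0.966). The 4 measured licensing and accessory genes lay within 2-fold, with Nek7, a partner of NLRP3, at 41.6 CPM and 34.2 CPM (ratio 1.22) and Txnip the most abundant at 58.2 CPM and 64.6 CPM. Ninj1, which ruptures the membrane after gasdermin pores form, was at 69.8 CPM and 38.0 CPM (ratio 1.83, 1.72 to 1.961), and Gsdme at 17.9 CPM and 16.7 CPM. The 3 measured inhibitors lay within 2-fold, with Card19 at 109 CPM and 81.9 CPM, and so did Ripk1 and Ripk3 of the 4 necroptosis genes.

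In mature cells these lists had genes on both sides. Of 23 measured genes, 6 were higher and 5 lower in mature cells of the cDC2 sort, against 10.7% and 7.42% of all measured features. In the cDC1 sort 7 were higher and 7 lower, against 13.7% and 12.3%. Gbp2, an interferon-inducible guanylate-binding protein, stood at 69.4 CPM in mature and 4.23 CPM in immature cells of the cDC2 sort (ratio 16.4, 12.1 to 22.2) and at 45.5 CPM and 0.327 CPM in the cDC1 sort (ratio 139, 69.1 to 318). Serpinb1a, which encodes an inhibitor of neutrophil proteases that also restrains caspase-1, stood at 34.7 CPM in mature and 4.85 CPM in immature cells of the cDC2 sort (ratio 7.16) and at 240 CPM and 3.01 CPM in the cDC1 sort (ratio 79.7, 62.5 to 102). Pstpip1, a binding partner of pyrin, was lower in mature cells of both libraries (ratio 0.382, 0.229 to 0.599, in the cDC2 sort and 0.233, 0.140 to 0.365, in the cDC1 sort). Il18 was lower as well, at 10.0 CPM in mature and 25.2 CPM in immature cells of the cDC2 sort and at 9.66 CPM and 29.1 CPM in the cDC1 sort, while Il1b lay within 2-fold in both (ratios 0.765 and 0.759).

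Likeness of pattern was described by Pearson correlation of log2(CPM + 5) over the 13 states, among the 6609 other features measured. These states share 2 libraries, so the values carry the difference between libraries and no test applies. The pattern of Casp4 was most like that of Irf4 (r = 0.99), a transcription factor of cDC2, followed by B4galt5 and Igf1r (0.98 each). Mefv was most like Emilin2 (0.98), H2afj (0.98) and Ifitm3 (0.97), and Ifitm3 is one of the genes that define the Cd7 Plac8 gate. Nlrp3 was most like Gsn (0.96), Socs3 (0.95) and Rpn1 (0.94), Casp1 most like Ivd (0.95), CAAA01118383.1 (0.95) and Elovl5 (0.94), Pycard most like Mrto4 (0.98), Ndufb3 (0.97) and Arhgap9 (0.97), and Gsdmd most like Arpc5 (0.95), Ehbp1l1 (0.93) and Ostf1 (0.93). Among the members themselves, the neighbours Casp1 and Casp4 were the most alike pair (r = 0.86), and the lowest value was that of Nlrp3 and Gsdmd (r = -0.31).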

How the data were processed

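Raw UMI counts per gene and cell barcode were deposited by the authors, 1 matrix per library, with no normalization. Per the labels' protocols, library preparation used Chromium chemistry of version 3.1 and sequencing took 1 lane. The submitters' processing notes name Cell Ranger 3.2, the mm10 build (the same assembly as GRCm38) and Seurat, and the software version in the file headers is 3.0.2. No source states how barcodes were selected before deposit.

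Barcodes under 500 genes, under 1000 UMIs or over 10% mitochondrial UMIs were dropped, which left 2835 of 3045 barcodes (cDC2) and 2574 of 2939 (cDC1). Cells were gated by how many markers of a fixed list they held. The number required was set from marker histograms after the data were seen. Gates applied in order were B cell (4 of 8), T or NK cell (3 of 8), fibroblast and endothelium (4 of 6 each), plasmacytoid DC (5 of 7), alveolar macrophage (3 of 7), neutrophil (4 of 8), nonclassical monocyte (5 of 8), interstitial macrophage (4 of 10), mature (5 of 8), cycling (5 of 10), then cDC1 (5 of 8) and cDC2 (5 of 9). Gates near their limit are soft: 129 cells of the cDC2 library lay 1 marker below the macrophage gate and 242 lay 1 marker below the mature gate. No doublet caller was run. Cells with both identity sets (6 in the cDC2 library, 5 in the cDC1 library) stayed in library totals only, and leaving out the top 5% of UMIs was an alternative.

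UMIs were summed per pool and scaled to CPM. Levels have exact Poisson intervals, ratios exact conditional binomial intervals and shares of cells exact Clopper-Pearson intervals, all for counting error only. For a count of 0 UMIs or cells, the limit given is a floor of 3 over the pool, unless an interval is named. The difference between log2 ratios has a normal-approximation counting interval. The code was checked on simulated counts. All 8 genes are reported. Pathway lists are given by counts, the largest ratios and the most abundant gene. Likeness is the 3 highest correlations. The genes, lists and markers were chosen with earlier results of these data known. Comparisons of Ccr7-high, Cd7 Plac8, cycling and mature-to-mature cells were added after the data were seen. Coordinates are from GENCODE M21 and promoters from RefSeq. Python 3.11.15, numpy 2.4.6, scipy 1.17.1, and edgeR 4.0.16 for the TMM factor in R 4.3.3 were used. Counts over the gene lists include genes whose own values are not reported here.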

Additional observations from a re-analysis of the deposited data

How the results depend on the processing

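No paired analysis was possible because there was 1 library per sort. Of 58 counts of members under an alternative, 52 stayed within 1.5 times the main count. Shares of all features were computed under the main settings only, so none stands beside the counts under alternatives. With a 1.5-fold rule 5 members were higher in the cDC2 sort. In mature cells of the cDC2 sort, 0 were lower with 1 marker fewer, 1 was higher and 2 were lower with 1 marker more, and 2 were lower by the mean over cells of UMIs per 10000. With identity gates of 1 marker fewer, 0 were lower in the cDC2-gated cells of the cDC2 sort, and the call of Mefv there was lost with 1 marker fewer (log2 ratio 0.80) and 1 more (bound of 0.76). In the cDC1 sort the mature count of 1 higher stayed with 1 marker more, but the gene was Gsdmd (log2 ratio 1.06) and not Casp4 (0.88). Of 155 log2 ratios, 143 stayed inside the counting interval of the main value and none of the 2-fold calls changed sign. In the mature comparison, the log2 ratio of Nlrp3 was -0.02 with 1 marker fewer and -1.60 with 1 marker more in the cDC2 sort, and -1.09 and -2.53 in the cDC1 sort, and the cause was not tested. Median-of-ratios and TMM scaling shifted the library ratios by -0.02 and -0.05 (log2) and changed no call. Of 32 shares of cells with a UMI, 30 moved when cells were thinned to 4000 UMIs or not thinned. Depth limits the pools of 20 and 28 cells, where most members rest on under 20 UMIs.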
